A study of Mus with 8 samples.

Results

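The genes of the AP-1 family described here are Fos, Fosb, Fosl1, Fosl2, Jun, Junb, Jund and Atf3. They were taken by name from a table of read counts for 24013 mouse genes. All 8 were found in it, and all 8 were among the 13339 genes with enough counts to be tested. AP-1 is a pair of basic leucine zipper proteins, usually a Fos-type protein with a Jun-type protein, that binds DNA and switches transcription. Many of its genes are immediate early genes, which serum, growth factors and stress switch on within minutes through MAP kinases and which fall back soon after. In preadipocytes AP-1 is one of the first factors to respond when cells are stimulated to become fat cells.

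The study asked how the homeodomain factor Prep1 restrains fat cell formation. It used 3T3-L1 cells, a mouse preadipocyte line derived from fibroblasts. C cells carried a pLKO.1 lentivirus with a scrambled shRNA and P cells the same vector with an shRNA against Prep1, and both were selected with puromycin, so each comparison of P with C cells rests on 1 cell line and 1 vector. RNA was sequenced at day −2, when the cells grew in BCS serum without inducers, and at day 1. The day 1 cells had received 1 µM dexamethasone, 0.5 mM IBMX (which raises cAMP) and 1 µg/ml insulin in medium with 10% FBS. Day 1 and day −2 therefore differ in the hormones, the serum and the time in culture, and these cannot be told apart. Each of the 4 conditions had 2 replicas. Unless a fit is said to use fewer libraries, the p-values rest on a spread per gene estimated over all 8 libraries. They therefore do not measure the spread within the 2 compared conditions alone.

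Levels are given as CPM, counts relative to the scaled size of the library. Thresholds for a call were a ratio over 2 or under 0.5 together with an adjusted p under 0.1. The adjusted p-values come from the quasi-likelihood test of edgeR, adjusted by Benjamini and Hochberg's method over the 13339 genes. The standard error (SE) is that of the log2 ratio. CPM do not take the length of a transcript into account, so levels are compared between libraries and not between genes. In RNA from a whole culture, fewer cells with a transcript and less of it per cell cannot be told apart.

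The targeted gene, Pknox1 (gene 18771), which encodes Prep1, was at 28.1 and 26.5 CPM in the 2 C libraries at day −2 and at 17.3 and 18.3 CPM in the P libraries. At day 1 it was at 38.1 and 36.5 CPM in C cells and 23.6 and 23.8 CPM in P cells. The P libraries lay below the C libraries on both days, by 0.62 (SE 0.14, adjusted p = 0.0558) and 0.65 (SE 0.14, adjusted p = 0.0575) on the log2 scale. The libraries had between 20428816 and 27614353 counts on 16232 to 18484 genes, and 3 counts equal 0.107 to 0.160 CPM depending on the library, a limit that covers counting error only.

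The 2 replicas of P cells at day −2 stood apart from each other. Over the 5600 genes with a mean log2 CPM above 5, the difference between replicas had an SD of 0.795 on the log2 scale in these cells, compared to 0.137 in the C cells of that day. At day 1 this SD was 0.261 for C and 0.121 for P cells. Replica 1 also had the lowest TMM scaling factor, 0.837. The summed level of 7 fibroblast and preadipocyte markers was 70363 CPM in replica 1 and 18103 CPM in replica 2, against 12342 to 13609 CPM in C cells at day −2. Most of this sum came from 3 collagen genes, with Col1a2 at 28501 and 7431 CPM, Col1a1 at 23560 and 4882 CPM and Col3a1 at 15766 and 3904 CPM in replicas 1 and 2. The receptor gene Pdgfra was alike in both, at 196 and 195 CPM, and Dlk1 was at 857 and 645 CPM. The markers were present in every library, as the label of the line asks. The 4 fat cell markers, such as Adipoq and Plin1, summed to at most 0.310 CPM in C cells and to 2.46 and 5.43 CPM at the lowest and highest in P cells at day −2, and at day 1 to 0.557 to 0.868 CPM in C and 54.7 to 61.7 CPM in P cells. Those of leukocytes, endothelium, epithelium and muscle summed to at most 6.60 CPM in any library. The levels of the 8 genes in P cells at day −2 are therefore given for each replica, and the part of the marker levels and of replica 1 as a whole in the results below was not tested.

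Fos and Fosb encode the Fos proteins with a strong activation domain, and both are textbook immediate early genes. Fos (gene 14281) was at 25.7 and 38.0 CPM in C cells at day −2 and at 317 and 78.3 CPM in replicas 1 and 2 of P cells. At day 1 its level was 771 and 952 CPM in C cells and 502 and 539 CPM in P cells. No library of one condition fell within the range of another, and the order was C at day −2, P at day −2, P at day 1, C at day 1. Of all genes, 26.5% had both P above both C libraries at day −2, and 29.9% had both below at day 1. The share of all genes with the whole order was not counted.

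Fosb (gene 14282) had the same order in all 8 libraries. Its level was 36.2 and 67.0 CPM in C cells and 464 and 93.7 CPM in P cells at day −2. At day 1 it was 1002 and 1189 CPM in C cells and 777 and 854 CPM in P cells. Fos and Fosb ranked the libraries alike (Spearman's rho 1, Pearson's r 0.996 on log2 CPM, n = 8, a description over libraries of 4 conditions), and the ratio of their read counts, Fosb to Fos, which also reflects transcript length, stayed between 1.20 and 1.76.

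Fosl1 (Fra-1) and Fosl2 (Fra-2) encode Fos-related proteins without that strong activation domain. Fosl1 (gene 14283) was at 81.3 and 65.3 CPM in C cells and 102 and 53.0 CPM in P cells at day −2, so that the C libraries lay between the P libraries. At day 1 it was at 76.4 and 87.1 CPM in C cells but 38.6 and 31.3 CPM in P cells, lower than in any other library. In the RefSeq gene list Fosl1 overlaps Ccdc85b, and since the use of strand in the counting is not stated, reads of the 2 genes cannot be told apart. Ccdc85b was called in none of the comparisons, but its changes had the sign of those of Fosl1. On the log2 scale it was at −1.50 (SE 0.67) in P cells on induction. For P against C cells at day 1 it was at −1.03 (SE 0.66). Fosl1 was at −1.15 and −1.23 in these 2 comparisons. Ccdc85b was at 1.17 (SE 0.67) in C cells on induction, where Fosl1 was at 0.16. For P against C cells at day −2 it was at 1.64 (SE 0.67), where Fosl1 was at 0.08. The part of Ccdc85b reads in the Fosl1 levels was not tested.

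Fosl2 (gene 14284) was at 196 and 199 CPM in C cells and 290 and 164 CPM in P cells at day −2. At day 1 the C libraries were at 375 and 490.2 CPM, the highest of all, and the P libraries at 243 and 229 CPM. The levels of P cells at day 1 thus lay between those of their own replicas at day −2.

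Jun (gene 16476) is the classical partner of Fos. It was at 240.5 and 282 CPM in C cells and 997 and 362 CPM in P cells at day −2. At day 1 it was at 1080 and 1442 CPM in C cells and 846 and 878 CPM in P cells. Replica 1 of P cells at day −2 was above both P libraries of day 1, while replica 2 was closer to the C cells of the same day.

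Junb (gene 16477) encodes a Jun protein that can oppose Jun. It was at 167 and 160.1 CPM in C cells and 421 and 199 CPM in P cells at day −2. Its level at day 1 was 480 and 544 CPM in C cells and 408 and 363 CPM in P cells. As for Jun, replica 1 of day −2 exceeded the P libraries of day 1.

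Jund (gene 16478) is the Jun gene with broad expression in resting cells. It was at 97.1 and 107 CPM in C cells at day −2, and its P libraries at 273 and 85.8 CPM lay on either side of them. At day 1 it was at 360.5 and 349 CPM in C cells and 210.5 and 215 CPM in P cells. The 2 conditions of day 1 did not overlap, with P below C cells, a pattern that 29.9% of all genes had.

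Atf3 (gene 11910) encodes a stress-induced bZIP factor that pairs with Jun proteins. Its level separated by cells and not by day. It was at 8.41 and 8.60 CPM in C cells and 5.86 and 4.99 CPM in P cells at day −2, and at 8.37 and 8.20 CPM in C cells and 5.38 and 5.93 CPM in P cells at day 1. The 4 P libraries lay below the 4 C libraries, whatever the day. Within a day, 27.3% of all genes had both P below both C libraries at day −2 and 29.9% at day 1. The share of all genes that separated all 4 from all 4 was not counted. These levels rest on 110 to 212 counts per library.

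**Figure D1:**
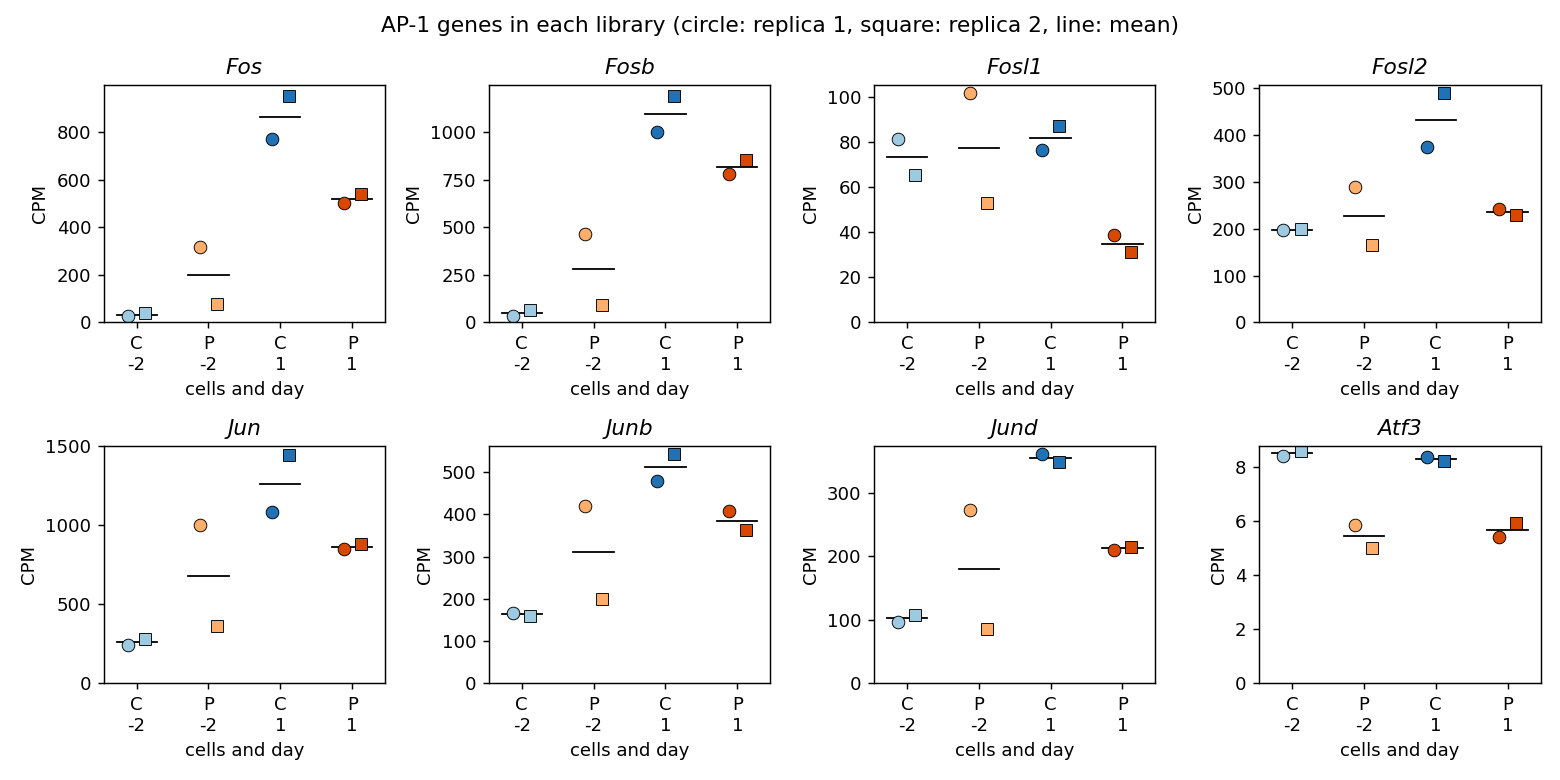
Level of each AP-1 gene in the 8 libraries, in CPM on a linear axis from 0, against the cells (C or P) and the day. Circles are replica 1, squares replica 2 and lines the mean of 2. The P replicas at day −2 differ over 2-fold for 5 genes. All 8 genes are higher in both C libraries than in both P libraries at day 1, a pattern that 29.9% of all genes have.

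Adipogenic induction of C cells was accompanied by higher levels of most of the family. Fos, Fosb, Fosl2, Jun, Junb and Jund rose, 6 of the 8 genes, where 10.7% of all genes tested were called higher, and none was lower by edgeR or DESeq2 or at an unadjusted p under 0.05 (9.68% of all genes were called lower by edgeR). The median log2 ratio was 1.72 over the 8 genes and −0.01 over all genes. Fos increased from 31.9 ± 8.65 to 862 ± 128 CPM (SD, n = 2), a log2 ratio of 4.76 (SE 0.66, adjusted p = 0.00307). Fosb increased from 51.6 ± 21.8 to 1095 ± 132 CPM, a log2 ratio of 4.41 (SE 0.75, adjusted p = 0.0069).

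The other rises were smaller. Jun increased from 261 ± 29.6 to 1261 ± 256 CPM (SD, n = 2), by 2.27 on the log2 scale (SE 0.45, adjusted p = 0.0119). The ratios of Jund, Junb and Fosl2 were 1.80 (adjusted p = 0.0322), 1.64 (adjusted p = 0.0128) and 1.13 (adjusted p = 0.0256). Fosl1 (0.16, SE 0.31, adjusted p = 0.743) and Atf3 (−0.04, SE 0.19, adjusted p = 0.906) were not called. Without either replica of C cells at day −2 only 3 of the 6 calls were made, without replica 1 or 2 of C cells at day 1 there were 5 and 4.

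In P cells the same treatment gave no higher call by edgeR among the 8 genes, where 7.65% of all genes were called higher. Fos was the 1 gene higher at an unadjusted p under 0.05, and DESeq2 called 2, Fos and Fosb (7.57% of all genes). Fosl1 fell, the only gene of the family called lower (10.4% of all genes), from 77.4 ± 34.6 to 35.0 ± 5.14 CPM (SD, n = 2), by 1.15 on the log2 scale (SE 0.31, adjusted p = 0.0430). The median log2 ratio was 0.28 over the 8 genes and 0.02 over all genes. Fos went from 198 ± 169 to 521 ± 25.9 CPM, a log2 ratio of 1.40 that was not called (SE 0.58, adjusted p = 0.129), and Fosb from 279 ± 262 to 816 ± 54.4 CPM (1.55, SE 0.67, adjusted p = 0.144). The ratios of Fosl2, Jun, Junb, Jund and Atf3 lay between 0.06 and 0.34, with adjusted p-values from 0.510 to 0.898.

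These values depended on the start at day −2. Without replica 1 of P cells at day −2, Fos (2.72), Fosb (3.11), Jun and Jund were called higher at day 1 in P cells, 4 genes of the family (7.3% of all genes in that fit), and Fosl1 was not called. Without replica 2 the log2 ratios of Fos and Fosb were 0.72 and 0.82. Without either P replica of day 1, no member was called.

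Does the response itself differ between P and C cells? The difference in response, tested as an interaction, was negative for 7 of the 8 genes, that is, the log2 ratio was lower in P cells. For Fosl1 this was a fall in P cells beside a ratio near 0 in C cells. It was −3.36 for Fos (SE 0.82, adjusted p = 0.138), −2.86 for Fosb (SE 0.95, adjusted p = 0.257) and −1.93 for Jun (SE 0.61, adjusted p = 0.239). Jund, Junb, Fosl1 and Fosl2 had differences of −1.55, −1.33, −1.30 and −1.07, and Atf3 of 0.10. None of the 8 genes passed the adjusted threshold, while 1.93% of all genes did so in this direction. At an unadjusted p under 0.05 there were 7 of 8, against 9.66% of all genes. DESeq2 called 5 of them, Fos, Fosb, Fosl1, Jun and Junb, and 5.44% of all genes in this direction.

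The sign of the 7 differences held without either P replica of day −2. The value for Fos was −2.06 without replica 1 and −4.04 without replica 2, and for Jun −1.05 and −2.48. Without replica 1, 6 genes passed the threshold, as did 7.52% of all genes in this direction. Without replica 2, 7 did, as did 30.2% of all genes. In such a fit the lone library is assumed to vary like those of the other conditions.

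**Figure D2:**
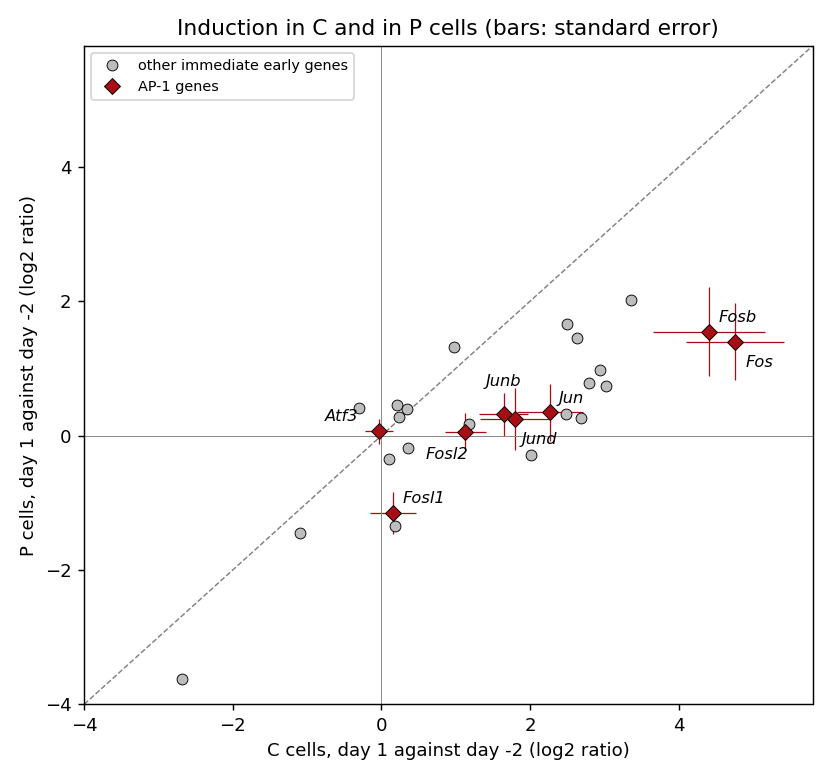
Log2 ratio of day 1 against day −2 in P cells (vertical) against that in C cells (horizontal), for the 8 AP-1 genes (diamonds, with bars of 1 standard error) and 20 other immediate early genes (circles). On the dashed line both responses are equal; 7 AP-1 genes lie below it, Fos at 4.76 and 1.40, and Atf3 lies near the origin.

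Before induction, P cells were compared with C cells directly. Fos and Fosb were called higher in P cells, 2 of the 8 genes (4.83% of all genes were called higher), and none was called lower by edgeR or DESeq2 (2.15% of all genes by edgeR, and 1 gene of the 8, Atf3, at an unadjusted p under 0.05). The log2 ratio was 2.63 for Fos (SE 0.60, adjusted p = 0.0559) and 2.43 for Fosb (SE 0.69, adjusted p = 0.0952). Both calls lay close to the threshold of 0.1. Jun (1.38, adjusted p = 0.118), Junb (0.92, adjusted p = 0.146) and Jund (0.81, adjusted p = 0.302) were not called by edgeR. DESeq2 called 3 genes higher, Fos, Fosb and Jun (6.73% of all genes). The ratio of Atf3 was −0.65 (SE 0.19, adjusted p = 0.0994), which is under the ratio threshold. Fosl1 and Fosl2 were at 0.08 and 0.20.

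Both P replicas were above both C libraries for Fos, Fosb, Jun and Junb, 4 of the 8 genes, a pattern that 26.5% of all genes had. Both were below for Atf3, 1 gene, where 27.3% of all genes had that pattern. Relative to the mean of the C libraries, Fos was 9.94 times as high in replica 1 and 2.46 times in replica 2. For Fosb these values were 8.99 and 1.82, for Jun 3.81 and 1.38, and for Junb 2.57 and 1.21. Jund was at 2.67 and 0.840, Fosl2 at 1.46 and 0.829, and Fosl1 at 1.39 and 0.723 times the C mean, so that the replicas lay on opposite sides of it. Atf3 was at 0.689 and 0.587.

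All 8 genes were higher in replica 1 than in replica 2, and 5 of them more than 2-fold, where 10.4% of all genes were. The difference was 4.05-fold for Fos, 4.95-fold for Fosb, 3.18-fold for Jund, 2.76-fold for Jun and 2.12-fold for Junb. With libraries scaled by their totals instead of by TMM, replica 1 was 7.85 times the C mean for Fos and 7.09 times for Fosb. Of the 5600 better expressed genes, 30 differed more than Fosb between these replicas and 64 more than Fos. For Jund, Jun, Junb, Fosl1, Fosl2 and Atf3 these numbers were 187, 342, 948, 1306, 1669 and 4370.

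Fos and Fosb also varied in C cells at day −2, where the replicas otherwise were alike. Fosb differed by 0.89 on the log2 scale between them and Fos by 0.56, and only 1 and 5 of the 5600 genes had larger differences. In C cells replica 2 was the higher. At day 1 the replicas differed by at most 0.30 on the log2 scale for these 2 genes, and 1003 to 1695 of the 5600 genes differed more.

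With a single replica of P cells the family gave different calls. Without replica 1, Fos alone was called higher at day −2 (1.31, adjusted p = 0.00379, with 3.94% of all genes called higher in that fit), while Fosb was at 0.87 (adjusted p = 0.0768), under the ratio threshold. Without replica 2, Fos (3.31), Fosb (3.17), Jun, Junb and Jund were called, 5 of the 8, where 14% of all genes were called higher. Without any 1 of the other 6 libraries, and in a fit of the day −2 libraries alone, no member was called.

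**Figure D3:**
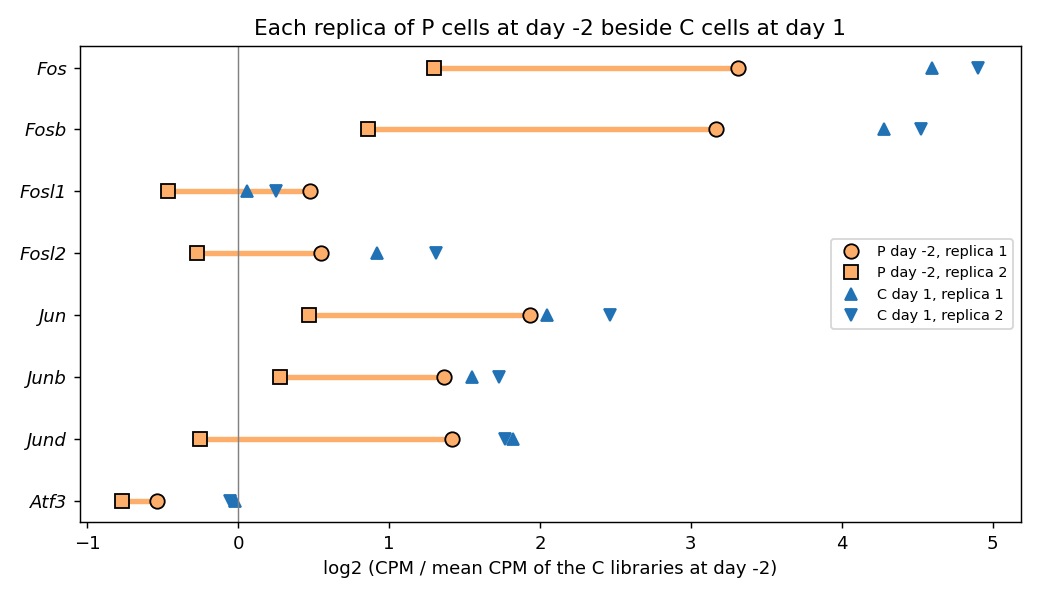
Level of each AP-1 gene in the P replicas at day −2 (circle and square, joined) and in the C replicas at day 1 (triangles), as log2 ratio to the C mean at day −2 (vertical line at 0). Replica 1 of P cells lies to the right of replica 2 for every gene, and for Fos both lie between the start and the C cells of day 1, at 9.94 and 2.46 times the C mean.

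At day 1, P cells were below C cells for the whole family. Both P libraries were lower than both C libraries for 8 of the 8 genes, a pattern that 29.9% of all genes had, and this was so under each of 3 scalings. Fosl1 was the 1 gene called lower (2.23% of all genes), at 35.0 ± 5.14 CPM in P cells and 81.7 ± 7.55 CPM in C cells (SD, n = 2), a log2 ratio of −1.23 (SE 0.31, adjusted p = 0.0987). No member was called higher by edgeR or DESeq2 (1.83% of all genes by edgeR), and none was higher at an unadjusted p under 0.05. The median was −0.64 over the 8 genes and 0.01 over all genes.

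The remaining ratios at day 1 were moderate. Fosl2 was at −0.87 (SE 0.28, adjusted p = 0.165), Jund at −0.74 (SE 0.46, adjusted p = 0.534) and Fos at −0.73 (SE 0.57, adjusted p = 0.651). Jun, Atf3, Fosb and Junb were at −0.55, −0.55, −0.43 and −0.41, with adjusted p-values from 0.201 to 0.858. The SE of this fit take in the spread of the day −2 replicas. When the 4 libraries of day 1 were fitted alone, all 8 genes had adjusted p-values under 0.1 with lower levels in P cells, where 14.5% of 12564 genes had. In that fit Jund was at −0.73 (SE 0.09, adjusted p = 0.00246) and Fos at −0.72 (SE 0.13, adjusted p = 0.00974), while Atf3 had the highest adjusted p-value, 0.0613. Fosl1 was still the only one past the ratio threshold. In the fit of all libraries its call was lost without any 1 of the 6 libraries other than P cells at day −2.

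**Figure D4:**
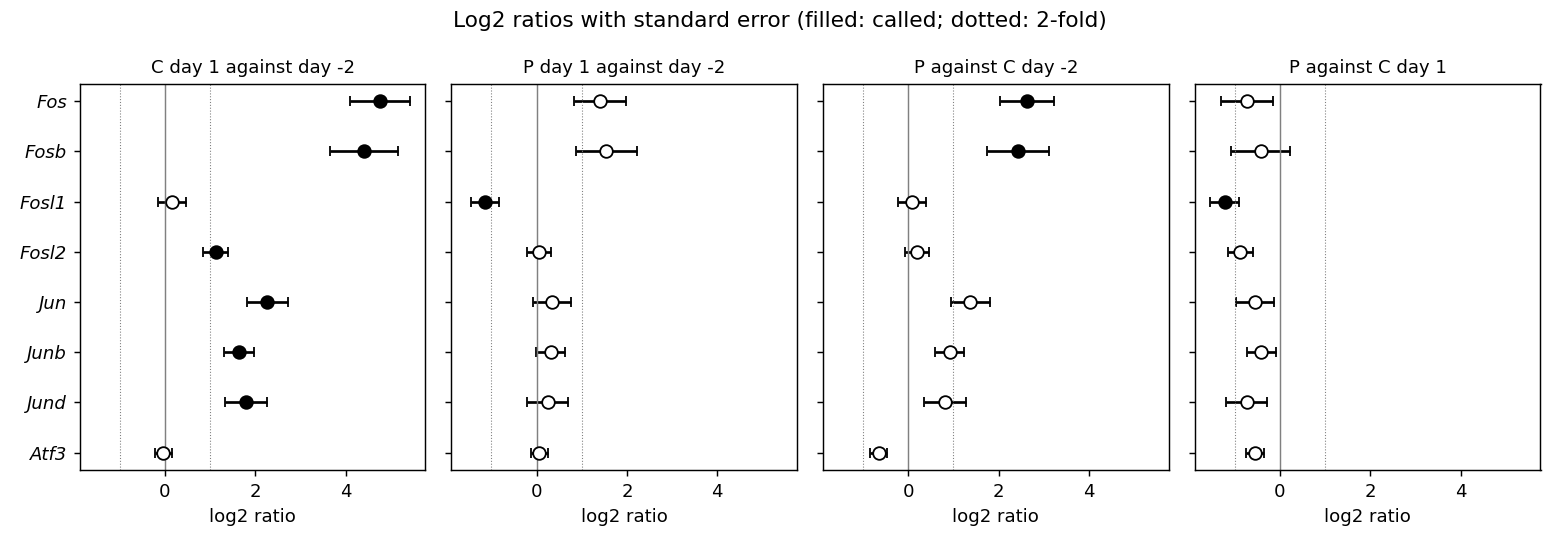
Log2 ratio of each AP-1 gene in the 4 comparisons, with bars of 1 standard error from the fit of all libraries; filled points passed both thresholds, and dotted lines mark a ratio of 2 in either direction. In C cells 6 genes are filled, in P cells Fosl1 alone on the lower side, at day −2 Fos and Fosb, and at day 1 all 8 points lie below 0.

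The composition of the Fos-type reads shifted with the levels. These shares are of reads, so they also reflect transcript length, and are compared between libraries only. Fos and Fosb together had 18.2% (95% Wilson interval 17.4 to 19.1) and 28.4% (27.4 to 29.4) of the reads on the 4 Fos genes in C cells at day −2. In P cells they had 66.6% (66.0 to 67.2) in replica 1 and 44.2% (43.3 to 45.1) in replica 2. The intervals cover counting error only. At day 1 the share was 79.7% and 78.8% in the C libraries and 82.0% and 84.2% in the P libraries.

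Both P replicas of day −2 lay between the C libraries of the same day and all libraries of day 1. Before induction the share of Fosl2 was 57.8% and 53.9% in the C libraries and 24.7% and 42.2% in the P libraries, and it was 13.9% to 18.0% after it. The Fosl1 share was 23.9% and 17.7% in the C libraries and 8.69% and 13.6% in the P libraries before induction, and at most 3.43% after it. The Jun genes kept a steadier composition, with Jun at 47.6% to 61.8% of their reads in all libraries. At day −2 the 8 genes together took 0.0880% and 0.1001% of all counts in the C libraries and 0.240% and 0.106% in the P libraries. Their part at day 1 was 0.410% and 0.489% in the C libraries and 0.318% and 0.327% in the P libraries.

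**Figure D5:**
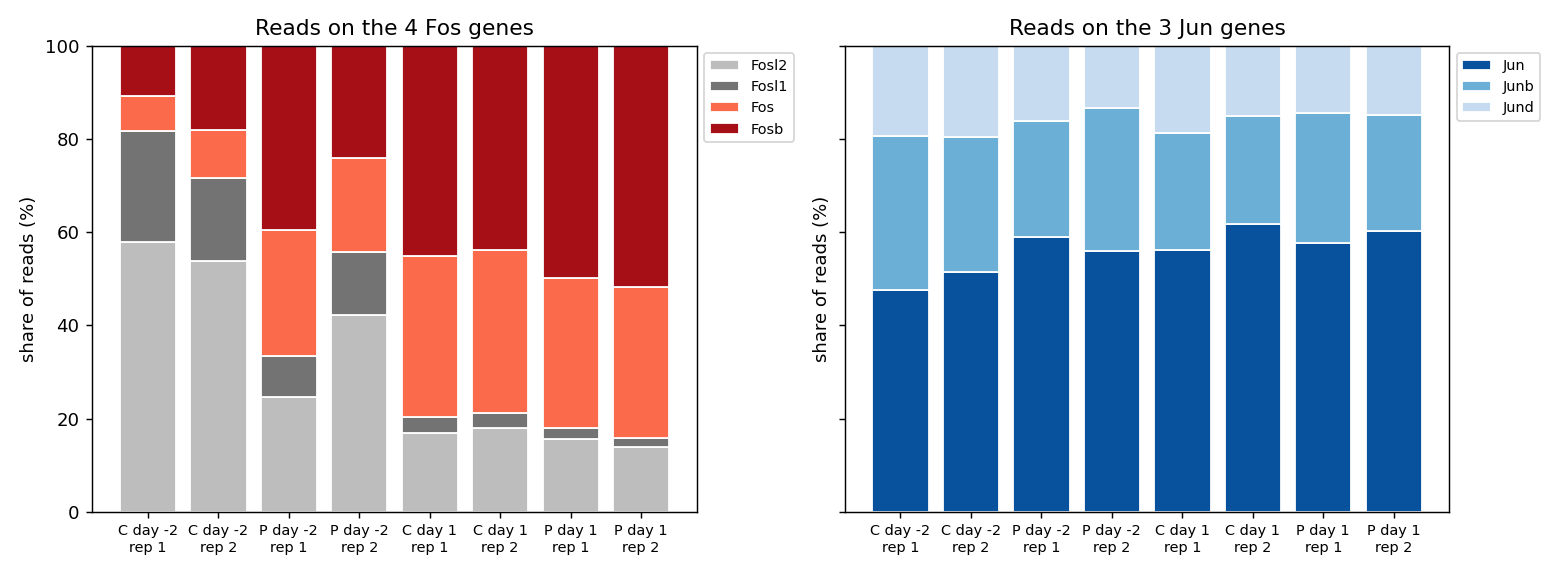
Share of reads (in percent, vertical axis from 0 to 100) on the 4 Fos genes (left) and the 3 Jun genes (right) in each library. The Fos and Fosb share rises from 18.2% and 28.4% in C cells at day −2 to 66.6% and 44.2% in the P replicas and to 78.8% or more at day 1, while the shares of the Jun genes move less.

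Other parts of the pathway were described by 4 lists written by hand, beside medians over all genes that lay between −0.01 and 0.02. Of all genes tested, 10.7% were called higher and 9.68% lower on induction of C cells, and 7.65% and 10.4% on induction of P cells. For P against C cells these shares were 4.83% and 2.15% at day −2 and 1.83% and 2.23% at day 1. Among 20 other immediate early genes, 10 rose and 2 fell on induction of C cells (median log2 ratio 1.08), and 4 rose and 3 fell in P cells (median 0.36). At day −2, 7 were higher and 1 lower in P cells (median 0.48), and at day 1, 1 was lower (median −0.46). Egr1, a zinc finger factor of the serum response, was at 37.0 ± 3.21 CPM in C cells and 131 ± 27.3 CPM in P cells at day −2 (SD, n = 2), higher in P cells by 1.82 (SE 0.18, adjusted p = 0.00346). Its P replicas 1 and 2 were at 150.2 and 112 CPM. Btg2, an antiproliferative gene, was at 10.2 ± 0.0233 and 60.1 ± 22.5 CPM, a log2 ratio of 2.55 (SE 0.26, adjusted p = 0.00377), with the P replicas at 76.0 and 44.2 CPM. Zfp36, which encodes an RNA-decay factor, rose by 3.35 in C cells and by 2.01 in P cells on induction. Dusp1, a MAP kinase phosphatase, rose by 2.50 in C cells and by 1.65 in P cells.

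Some members of that list fell. Ctgf, a matrix-associated growth factor, fell by 2.69 in C cells and by 3.62 in P cells, and Ier3 fell by 1.10 and 1.44 on induction. Ier3 was also lower in P than in C cells on both days (−1.05 and −1.39). The difference in response was called lower in P cells for 4 of the 20 genes by edgeR (1.93% of all genes) and 8 by DESeq2 (5.44% of all genes). By edgeR it was −1.96 for Egr1 (adjusted p = 0.0205) and −2.01 for the orphan receptor gene Nr4a1 (adjusted p = 0.0388). Between the P replicas of day −2, 17 of the 20 were higher in replica 1, 6 of them over 2-fold, where 10.4% of all genes were.

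Of 17 other bZIP genes, 15 were tested. On induction 4 rose and 1 fell in C cells, and 2 rose and 1 fell in P cells. The large Maf factor gene Maf rose by 2.45 in C cells and by 2.75 in P cells. Creb5 fell by 2.23 in C cells, and at day −2 it was also lower in P cells (−2.77, adjusted p = 0.0459). Crem, a cAMP-responsive factor gene, rose by 1.44 in C cells and by 1.34 in P cells. In P cells the small Maf gene Maff fell by 3.30, from 74.3 and 22.1 CPM in replicas 1 and 2 of day −2 to 5.47 and 4.29 CPM. At day −2, 3 genes were higher and 1 lower in P cells. Jdp2, which encodes a Jun-dimerizing repressor, was higher by 1.11 (adjusted p = 0.0285), with the P replicas at 81.2 and 57.2 CPM. Atf5 was higher by 1.91 (adjusted p = 0.0632), with the P replicas at 496 and 169 CPM. At day 1 neither edgeR nor DESeq2 called a gene of this list, with 1 higher and 1 lower at an unadjusted p under 0.05. In the difference of responses edgeR called none, with 4 lower in P cells at an unadjusted p under 0.05, and DESeq2 called 4.

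Genes that act upstream made up the next list. Of 18 genes for MAP kinases and the SRF complex, 1 rose and 1 fell in C cells and 1 rose and 2 fell in P cells on induction. Mapk9, which encodes the Jun kinase JNK2, rose by 1.05 in C cells and 1.42 in P cells, while Elk3, a ternary complex factor, fell by 1.47 and 1.91. Map2k1, which encodes MEK1, fell by 1.54 in P cells, from 329 CPM in replica 1 and 89.7 CPM in replica 2 of day −2 to 72.2 and 71.2 CPM at day 1, so that most of the fall lay in replica 1. Rps6ka1, which encodes the kinase RSK1, was lower in P cells by 1.19 at day −2 (adjusted p = 0.0148) and by 1.41 at day 1 (adjusted p = 0.0122).

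Textbook AP-1 targets mostly fell on induction of either cells. Of 16 such genes, 1 rose and 11 fell on induction of C cells (median −2.00), and 12 fell in P cells (median −1.85). Mmp3, which encodes the metalloprotease stromelysin, went from 34.6 ± 2.71 to 0.634 ± 0.108 CPM in C cells (SD, n = 2), a fall of 5.76 on the log2 scale (SE 0.35, adjusted p = 0.000148). Ccnd1, which encodes cyclin D1, fell by 3.15 in C cells and by 2.27 in P cells. Plau, the gene of urokinase, fell by 3.81 in C cells and by 4.69 in P cells. The cytokine gene Il6 rose by 2.09 in C cells. At day −2, Mmp3 was lower in P than in C cells, by 1.98 (adjusted p = 0.0115). At day 1 it was higher in P cells by 2.11 (adjusted p = 0.0238), and the protease inhibitor gene Timp1 was lower (−1.42, adjusted p = 0.0251).

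The genes whose levels followed those of Fos most closely over the 8 libraries were named by the Pearson correlation of log2 CPM, among 10904 genes with a mean of at least 50 counts. Besides Fosb they were Cant1 (r = 0.994), Pld3 (0.992), Angptl6 (0.992) and Plxnd1 (0.991). The closest to Jun were Asap3 (0.996), Ier2 (0.995), Man2c1 (0.993) and Cry2 (0.993). Closest to Fosl1 were Mtif3 (0.988), Cyp46a1 (0.978), Ptk7 (0.977), Tbc1d13 (0.975) and Nfkb2 (0.975). These are descriptions over 8 libraries of 4 conditions. A high r does not mean an equal range. Plxnd1, a semaphorin receptor gene, went from 63.1 ± 0.796 to 304 ± 26.7 CPM in C cells (SD, n = 2), while Cant1 went from 46.7 ± 2.81 to 90.8 ± 8.41 CPM.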

How the data were processed

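RNA of 8 libraries was sequenced on the Ion Torrent system. The authors removed artifacts with the FASTX-Toolkit, aligned reads to mm9 (TopHat2 2.0.9 in the submitters' processing notes) and counted them per NCBI gene against the refGene annotation. The deposited values are these counts, not normalized. Strand use and reads of several genes are not given in the sources used here.

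Symbols came from a RefSeq list of build GRCm38.p6, which matched 23929 of 24013 genes (84 had none) and was used for names and overlaps only. The libraries held 20428816 to 27614353 counts. The analysis used edgeR 4.0.16 and limma 3.58.1 under R 4.3.3, with filterByExpr, TMM, a prior count of 2 for log2 CPM, and a two-sided quasi-likelihood test with 1 mean per condition over all libraries. Genes were called at a Benjamini-Hochberg adjusted p-value under 0.1 and a ratio over 2 or under 0.5, interactions without a ratio threshold. An exact permutation test of 2 against 2 cannot go below p = 0.333 and was not used.

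Named were all members, Pknox1, the called list genes with the lowest p (at most 2 per direction and comparison), and the 5 genes closest to Fos, Jun and Fosl1. Some genes that the rule picks are not reported here. Also named were Ccdc85b, which overlaps Fosl1, and some of the cell type markers. Other genes outside this rule are said to be chosen after their values were seen. Members and lists were chosen with earlier results of these data known. On simulated counts of 12991 to 13046 genes, 78% to 82% of 200 genes changed 4-fold were called, with 14 to 24 false calls. The simulated conditions all had the same spread per gene, unlike the real ones, where the P replicas at day −2 differed most. These rates therefore cannot be carried over to the comparisons made here.

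Alternatives were DESeq2 1.42.0, its size factors or library totals as scaling, other count filters, fits of the compared conditions only, a replicate block, other thresholds, and leaving out each library. The replicate numbers come from the labels, which do not say what they share.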

Additional observations from a re-analysis of the deposited data

Results flagged for a closer look

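Fos, Fosb, Jun and Junb were above C cells in both P replicas at day −2 and below C cells in both at day 1. Of all genes, 26.5% had the pattern of day −2 and 29.9% that of day 1. The share of all genes with both patterns was not counted, so how unusual this crossing is was not tested. The differences in response were −3.36, −2.86, −1.93 and −1.33 on the log2 scale, with unadjusted p-values of 0.00483, 0.0197, 0.0162 and 0.0232 and adjusted p-values of 0.138, 0.257, 0.239 and 0.270 (edgeR, quasi-likelihood test, Benjamini-Hochberg), so none passed the threshold.

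Some of the listed genes had a response that differed between P and C cells past the adjusted threshold. It was lower in P cells for the immediate early genes Egr1 (−1.96, SE 0.25, adjusted p = 0.0205), Btg2 (−2.31, SE 0.36, adjusted p = 0.0388), Nr4a1 (−2.01, SE 0.31, adjusted p = 0.0388) and Egr2 (−2.44, SE 0.44, adjusted p = 0.0635), the last chosen after its values were seen. Egr2, a zinc finger gene, was at 4.28 ± 0.588 CPM in C cells and 12.8 ± 5.58 CPM in P cells (16.8 and 8.88 in replicas 1 and 2) at day −2, and at 27.6 ± 3.83 and 15.2 ± 0.163 CPM at day 1 (SD, n = 2).

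The AP-1 target Mmp3 also differed, with a difference of 4.09 (SE 0.44, adjusted p = 0.0127), since it fell further in C cells.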

How the results depend on the processing

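For C cells on induction, 6 members were called under every alternative that kept all libraries, and 3 to 6 with 1 library left out. Over all genes the count was 2723, with 4743 without the ratio threshold and 1664 to 3329 with a library left out. For P cells, 1 member was called, but 3 by DESeq2 and 3 without a count filter, 2 with library totals and 0 from the P libraries alone (0 to 4 with a library left out). All genes called were 2406, with 1213 from the P libraries alone, 4192 without the ratio threshold and 1248 to 5000 with a library left out. For P against C cells at day −2, 2 members were called, 3 by DESeq2 and 3 without a count filter (Jun besides Fos and Fosb), 3 without the ratio threshold (Atf3 besides them), 1 with library totals, and 0 from the day −2 libraries alone, with the replicate block, at an adjusted p under 0.05 and with the crossed block (0 to 5 with a library left out). All genes called were 931, with 81 from these libraries alone, 597 with the replicate block, 602 at an adjusted p under 0.05, 1513 without the ratio threshold and 188 to 4380 with a library left out. At day 1, 1 member was called, and 0 with the replicate block, at an adjusted p under 0.05 and with the crossed block (0 to 1 with a library left out). All genes called were 542, with 899 from the day 1 libraries alone, 820 without the ratio threshold and 63 to 994 with a library left out. For the difference in response, 0 members were called, 5 by DESeq2 and 1 without a count filter (0 to 7 with a library left out). All genes called were 316, with 886 by DESeq2, 117 with the replicate block, 174 at an adjusted p under 0.05, 148 with the crossed block and 32 to 8395 with a library left out. The causes of these changes were not tested.

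Directions turned as follows. With library totals, Fosl1 and Fosl2 at day −2 were at −0.15 and −0.030. With this scaling the median of all genes was −0.18 there and 0.19 in P cells on induction, against 0.01 and 0.02 with TMM. The calls at day −2 were 644 higher and 287 lower, and 453 and 365 with library totals, and those of P cells on induction 1020 and 1386, and 1288 and 1074. With a library left out, the induction of P cells ranged from −0.29 to 0.51 for Fosl2, −0.20 to 1.24 for Jun, −0.12 to 0.95 for Junb, −0.35 to 1.30 for Jund and −0.043 to 0.17 for Atf3. The day −2 values ranged from −0.46 to 0.47 for Fosl1, −0.26 to 0.54 for Fosl2 and −0.24 to 1.41 for Jund, and the Atf3 difference in response from −0.011 to 0.18. The turned values came from leaving out a P replica, except for Fosl1 at day −2, which also turned without replica 2 of C cells at day −2 (−0.074).

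Over all genes, libraries with the same replicate number had correlated deviations of 0.209 in 1 of 6 pairs of conditions. In the others these were −0.0523 to −0.355. Over genes with a mean log2 CPM above 5, they were 0.438 for C with P cells at day −2 and 0.137 at day 1. The other pairs were at −0.192 to −0.752, the last for P cells at day −2 with C cells at day 1. Signs differed between pairs, so the numbers were not taken to pair the libraries. With the replicate block, Fos and Fosb at day −2 were at 2.54 (adjusted p = 0.126) and 2.34 (adjusted p = 0.186), Fosl1 at day 1 at −1.25 (adjusted p = 0.114), and no other call of a member changed. The crossed block, which exchanges the numbers of P replicas 1 and 2 after induction, was added after the data were seen. A summed level per length, planned as a description, was not run, since no transcript lengths of the files' build were used here. Atf3, with the fewest counts of the family (110 to 212 per library), has the least precise counting.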
